A study of Mus musculus with 6 samples.

Results

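ABC transporters are membrane proteins that use ATP to move bile salts, phospholipids, sterols, acyl-CoAs, metal complexes and conjugated drugs across membranes, and their relatives of subfamilies E and F are soluble ATPases that work on ribosomes. They were taken here as every array probe whose deposited gene symbol begins with Abc, a subfamily letter from a to g and a digit, a choice that uses no measured value. That gave 104 of 45281 probes, under 52 deposited symbols that stand for 50 of 28908 genes once Abca8 is read as Abca8b and Abcc1a as Abcc1. A probe was kept for testing when its detection p, the chance of such a signal from background beads, was under 0.05 on at least 3 of the 5 arrays compared, and 52 member probes of 30 genes were kept.

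Livers came from 3 mice deficient in Creb3l3 (Creb3l3 KO) and 3 wild-type (WT) littermates, all male, of C57BL/6 background, on normal chow, and fasted for 24 h. Creb3l3 encodes CREBH, a membrane-anchored transcription factor made in liver and gut, whose cytosolic part enters the nucleus once proteases have cut it free. The labels name neither the way the gene was deleted, nor the tissues that lack it, nor the age of the mice. One bead array was run per liver, so replicates are separate animals, and their number limits the precision.

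In hepatocytes the members work at separate membranes. Pumps of the canalicular membrane, which faces the bile, export bile salts, phosphatidylcholine, conjugated bilirubin and sterols. Most half-transporters of the D subfamily bring activated fatty acids into peroxisomes, those in mitochondria serve iron-sulfur and heme metabolism, and several C subfamily members release conjugates across the basolateral membrane into blood. Fasting raises the flow of fatty acids through liver, and the comparison asks how the fasted liver differs without CREBH.

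The arrays differed in brightness. The array of KO replicate 3 stood apart: 4302 of its probes were detected, against 11846 and 15867 for KO replicates 1 and 2 and 15504 to 16224 for the WT arrays. On it 12 of the 104 member probes were detected, against 41 and 54 on KO replicates 1 and 2 and 50 to 56 on the WT arrays. Across probes, its normalized signals had correlations (Pearson) of 0.676 to 0.697 with the other arrays, whose correlations among themselves were 0.973 to 0.993. Comparisons therefore rest on 2 KO and 3 WT arrays, and values with all 6 arrays are given beside those of the named ABC genes. Values of partner genes, regulators and cell markers are from the 5 arrays unless stated. KO replicate 1 was dim as well, with a mean deposited signal of 149 against 246 for KO replicate 2 and 219.4 to 252 for the WT arrays. The Creb3l3 probe had deposited signals of 148, 283 and 87.9 in KO replicates 1, 2 and 3, against 1201, 949 and 929 in WT replicates 1, 2 and 3, and was called lower in the knockout (log2 change -2.32 ± 0.15, SE; adjusted p = 0.00271, and 0.574 with all 6 arrays). The labels do not say whether this probe lies inside the deleted part.

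Among ABC transporters no difference between the genotypes passed the test. Of the 52 kept member probes, 0 were called higher and 0 lower by limma at an adjusted p under 0.05, where the share called among all 14345 kept probes was 0.0627% higher and 0.279% lower, so that a count of 0 among 52 lies near the background. At an unadjusted p under 0.05 there were 1 higher and 3 lower member probes, beside 4.66% and 7.47% of all kept probes. Signals of the KO and WT arrays did not overlap for 3 member probes that were higher in KO livers and 8 that were lower, or 5.77% and 15.4% of the 52, beside 12.9% and 16.4% of all kept probes. With all 6 arrays the counts called were again 0 and 0, beside 0% of all 14494 kept probes in either direction. An unadjusted p under 0.05 was then reached by 0 member probes in the higher direction and 1 in the lower, beside 0.552% and 3.3% of all, and 0 and 6 did not overlap, beside 3.99% and 13.4%. Leaving out KO replicate 2 gave 3 higher and 4 lower calls among 48 member probes, beside 5.89% and 10.8% of all probes.

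Each gene is described by its kept probe with the highest mean signal. Over the 30 genes the median log2 change was -0.04, against -0.01 over all 10055 genes with a kept probe, and the values ran from -0.56 for Abce1 to 0.37 for Abca6. In all, 16 lay below 0 and 14 above, or 53.3% below, beside 52.2% of all genes. With all 6 arrays the members' median was -0.28, and with median scaling in place of quantile normalization -0.44, while that of all probes was -0.28 and -0.42. The 95% interval of the difference lay within a 2-fold change in either direction for 29 of the 30 genes, the exception being Abce1, and within a 1.5-fold change for 14. These intervals are for each gene alone, on a normalized scale that understates changes of dim probes. As the samples are whole liver, fewer cells of a type and less RNA per cell cannot be told apart.

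**Figure D1:**
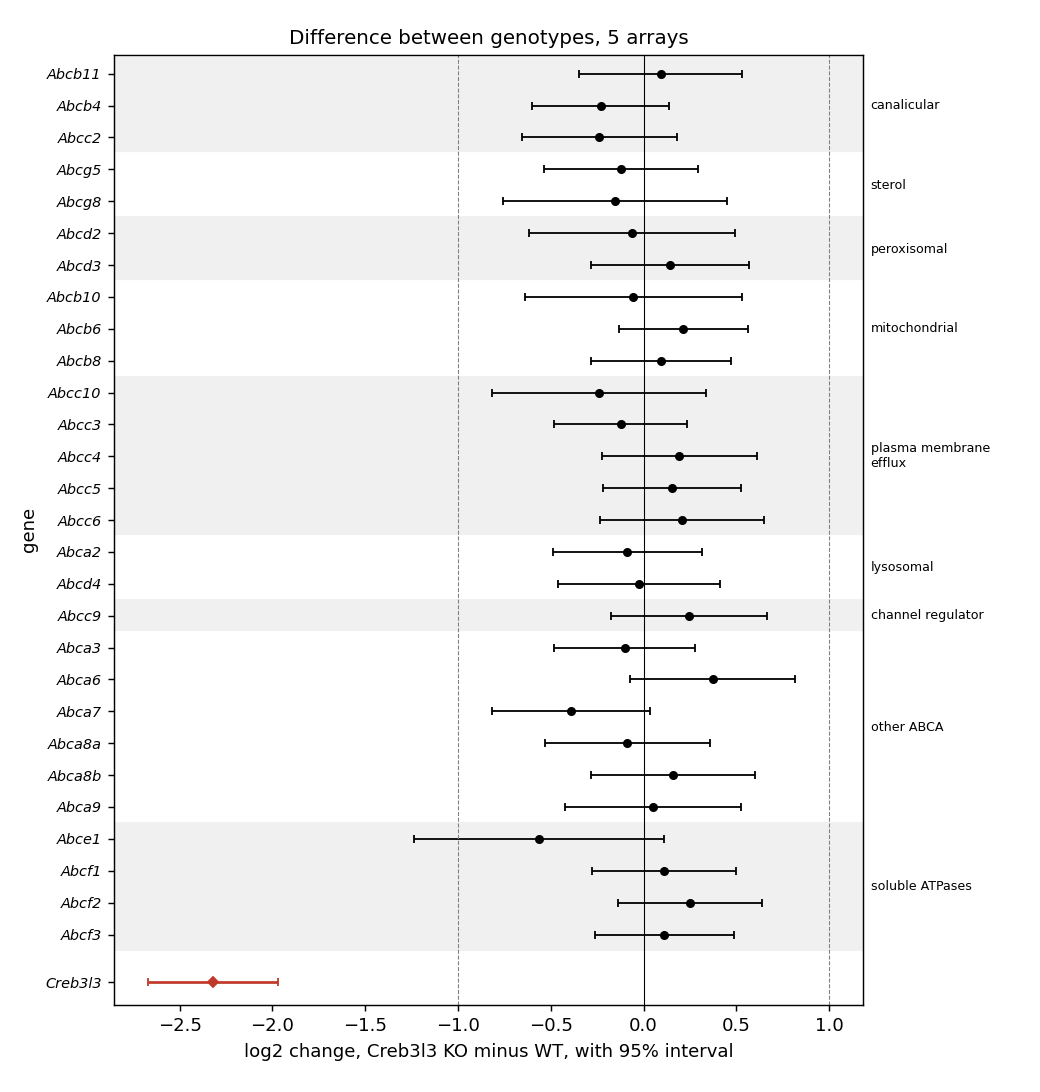
Log2 change of each of 28 kept ABC transporter genes, Creb3l3 KO minus WT, from the fit of 5 arrays (points) with its 95% interval (bars), grouped by role, with Creb3l3 below for comparison. Dashed lines mark a 2-fold change in either direction. The intervals of all 28 members drawn include 0, and among them that of Abce1 alone reaches past a 2-fold change.

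At the canalicular membrane 3 of 6 genes had a kept probe, and 0 of the 3 passed the test in either direction, with a median log2 change of -0.23, and -0.12 with all 6 arrays. Abcb11, the bile salt export pump, had deposited signals of 320.5, 715 and 88.3 in KO replicates 1, 2 and 3, against 879.9, 595 and 638 in WT replicates 1, 2 and 3. After normalization the 2 compared KO arrays stood at 9.43 and 8.98 and the WT arrays at 9.25, 9.0 and 9.09 on the log2 scale, so the KO livers lay on either side of the WT livers. Its log2 change was 0.09 ± 0.19 (SE; interval -0.35 to 0.53; adjusted p = 0.861), and -0.83 ± 0.78 with all 6 arrays, where the probe was not detected on KO replicate 3.

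Abcb4 is the floppase that delivers phosphatidylcholine to bile. It had deposited signals of 992, 3336 and 140.1 in KO replicates 1, 2 and 3, against 3829, 2935 and 3358 in WT replicates 1, 2 and 3. Normalized log2 signals were 11.25 and 11.34 in KO livers and 11.48, 11.44 and 11.66 in WT livers. Both KO livers thus lay below all WT livers, by a margin smaller than the spread among the WT livers. The log2 change was -0.23 ± 0.16 (SE; interval -0.60 to 0.14; adjusted p = 0.575), and -0.12 ± 0.21 with all 6 arrays.

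Abcc2 exports bilirubin glucuronides and other conjugates into bile. At its brighter probe the deposited signals were 165, 455 and 92.3 in KO replicates 1, 2 and 3, against 479, 408 and 364 in WT replicates 1, 2 and 3. The normalized values were 7.83 and 8.23 in KO livers and 8.27, 8.36 and 8.16 in WT livers, which overlap, and the log2 change was -0.24 ± 0.18 (SE; interval -0.66 to 0.18; adjusted p = 0.608), and -0.06 ± 0.26 with all 6 arrays. At the dimmer probe the KO livers, at 5.79 and 5.69, lay below the WT livers, at 6.19, 6.29 and 6.06, with a log2 change of -0.44 ± 0.16 (interval -0.81 to -0.07; adjusted p = 0.362), and -0.85 with all 6 arrays. Neither probe passed. The drug pumps Abcg2 and Abcb1a were detected on 0 of 6 arrays at their single probes, and the single probe of Abcb1b, a close paralog of Abcb1a, on 1 array, that of WT replicate 2.

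**Figure D2:**
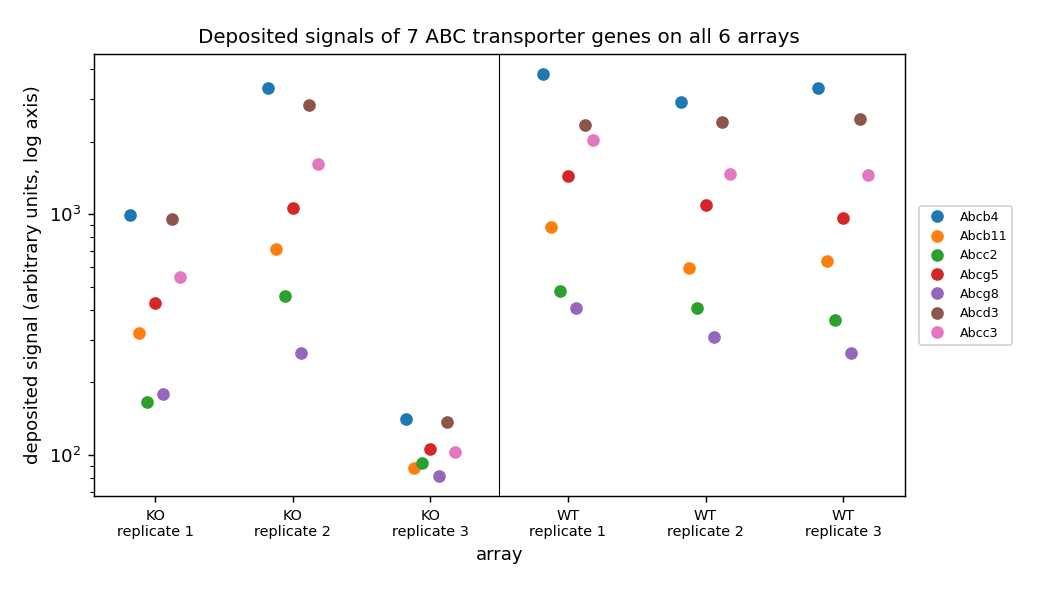
Deposited signals, in arbitrary units on a log axis, of 7 ABC transporter genes (colours) on the arrays of the 3 Creb3l3 KO livers (left) and the 3 WT livers (right), before any normalization. All 7 genes are dimmest on KO replicate 3, and the 7 genes are dimmer on KO replicate 1 than on KO replicate 2.

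Of the 5 sterol transporters only Abcg5 and Abcg8 had a kept probe. Together these half-transporters form the pump that excretes cholesterol and plant sterols into bile, so they also belong to the canalicular membrane. Abcg5 had deposited signals of 428, 1056 and 106 in KO replicates 1, 2 and 3, against 1439.6, 1086 and 959.8 in WT replicates 1, 2 and 3. Abcg8 had 179, 265 and 81.3, against 408, 307 and 266 in the same order. Normalized log2 signals of Abcg5 were 9.95 and 9.60 in KO livers and 10.01, 9.94 and 9.75 in WT livers. Those of Abcg8 were 8.07 and 7.23 in KO livers and 7.98, 7.85 and 7.57 in WT livers. For both genes KO replicate 2 had the lowest of the 5 normalized values, WT replicate 3 came next, and KO replicate 1 lay among or above the other WT livers, so the genotypes overlapped. The log2 changes were -0.12 ± 0.18 for Abcg5 (SE; interval -0.54 to 0.29; adjusted p = 0.8) and -0.15 ± 0.26 for Abcg8 (SE; interval -0.76 to 0.45; adjusted p = 0.832). With all 6 arrays they were 0.10 ± 0.28 and -1.21 ± 0.90, and Abcg8 was not detected on KO replicate 3.

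Abcg5 and Abcg8 are transcribed in opposite directions on chromosome 17. The RefSeq gene of Abcg8 (GRCm38.p6) spans 84676302 to 84700333 and so begins inside that of Abcg5, at 84658174 to 84683011. The Abcg8 window shown was chosen as the one that overlaps that of Abcg5. The start sites of these windows lie 110 bases apart, and the 300-base windows share 209 bases. The windows run from 250 bases before to 50 after each start and are shown because a single stretch of DNA holds both of these starts. Abcg5 lies at chr17:84682962-84683261 on the minus strand and Abcg8 at chr17:84682871-84683170 on the plus strand, each written 5′ to 3′ on its own strand. Capitals mark the letters TATAAA, searched on both strands, which is the same site in both windows, at position -84 from the start of Abcg5 and, on the opposite strand, -31 from that of Abcg8.
Abcg5: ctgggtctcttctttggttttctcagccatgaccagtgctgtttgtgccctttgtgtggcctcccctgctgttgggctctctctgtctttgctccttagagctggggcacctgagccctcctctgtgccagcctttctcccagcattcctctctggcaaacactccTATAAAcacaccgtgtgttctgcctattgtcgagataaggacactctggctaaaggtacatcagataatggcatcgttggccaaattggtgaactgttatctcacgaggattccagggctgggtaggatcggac
Abcg8: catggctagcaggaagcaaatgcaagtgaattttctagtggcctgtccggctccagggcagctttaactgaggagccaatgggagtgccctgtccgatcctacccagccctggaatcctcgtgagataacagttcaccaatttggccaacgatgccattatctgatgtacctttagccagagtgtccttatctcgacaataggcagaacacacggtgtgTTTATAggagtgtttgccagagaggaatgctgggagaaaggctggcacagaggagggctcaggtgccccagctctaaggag
Neither window holds the cyclic AMP response element TGACGTCA or the related TGACGTGG on either strand. TATAAA occurs in 13.6% of all 32851 RefSeq windows of this length.

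The cholesterol exporter Abca1, which loads apolipoprotein A-I, was detected on 0 of 6 arrays at its single probe, with deposited signals of 98.8, 91.4 and 86.4 in KO replicates 1, 2 and 3 and 96.3, 88.6 and 88.8 in WT replicates 1, 2 and 3. Abcg1, which passes cholesterol to high-density lipoprotein, was detected on the arrays of KO replicate 2 and WT replicate 3 and was not tested. Abcg4, a close relative of Abcg1, was detected on KO replicates 1 and 3 and on none of the WT arrays, at signals of 103 and 89.9. These signals lie close to those of undetected probes, so nothing is drawn from them.

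All 3 peroxisomal genes were kept and 0 passed the test, with a median log2 change of -0.06, and -0.23 with all 6 arrays. Abcd3, an abundant peroxisomal membrane protein that carries branched-chain and dicarboxylic acyl-CoAs and bile acid precursors, has 4 kept probes. At the brightest, deposited signals were 955, 2832 and 136 in KO replicates 1, 2 and 3, against 2351, 2425 and 2484 in WT replicates 1, 2 and 3. The normalized values of 11.21 and 11.12 in KO livers overlapped with those of 10.76, 11.13 and 11.18 in WT livers, and KO replicate 1 was the highest. The log2 change there was 0.14 ± 0.18 (SE; interval -0.28 to 0.57; adjusted p = 0.779), and 0.28 ± 0.24 with all 6 arrays.

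Probes of Abcd3 disagreed. In order of decreasing brightness their log2 changes were 0.14, -0.05, -0.35 and -0.80, and with all 6 arrays 0.28, 0.13, -0.24 and -1.31. The dimmest of them had deposited signals of 117, 169 and 84.9 in KO replicates 1, 2 and 3, against 229, 220.3 and 217 in WT replicates 1, 2 and 3. Its normalized values of 6.35 and 6.23 in KO livers lay below 6.93, 7.18 and 7.16 in WT livers, without overlap, with a log2 change of -0.80 ± 0.17 (SE; interval -1.18 to -0.42). The adjusted p of 0.139 was the smallest of all 52 member probes and missed the threshold, and it was 0.653 with all 6 arrays. Where on the transcript each probe lies was not analysed here.

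Abcd2, another half-transporter of fatty acyl-CoAs, had deposited signals of 101, 107 and 82.9 in KO replicates 1, 2 and 3, against 101, 102 and 116 in WT replicates 1, 2 and 3, all near background. The normalized values of Abcd2 were 4.97 and 4.86 in KO livers, inside the WT range of 4.64, 4.86 and 5.43, and its log2 change was -0.06 ± 0.24 (SE; interval -0.62 to 0.49; adjusted p = 0.935), and -0.23 ± 0.29 with all 6 arrays. Of 9 partner genes of peroxisome assembly and beta-oxidation, all were kept and 0 passed, with a median log2 change of -0.24. Of the 9, 8 lay below 0, beside 52.2% of all genes with a kept probe.

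All 4 mitochondrial genes were kept and 0 passed, with a median log2 change of 0.02, and -0.59 with all 6 arrays. Abcb6, a porphyrin transporter placed at the outer mitochondrial membrane and at other membranes, had 2 KO livers above all WT livers. Deposited signals were 157, 341 and 84.6 in KO replicates 1, 2 and 3, against 309.8, 247 and 252 in WT replicates 1, 2 and 3. Normalized values of 7.65 and 7.71 in KO livers lay above 7.50, 7.44 and 7.47 in WT livers, without overlap, yet the log2 change of 0.21 ± 0.15 (SE; interval -0.13 to 0.56) had an adjusted p of 0.58. With all 6 arrays it was -0.79 ± 0.83, with the sign turned, and the probe was not detected on KO replicate 3.

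Abcb8, an inner-membrane transporter linked to iron export, had normalized values of 6.10 and 5.83 in KO livers, against 5.93, 5.83 and 5.86 in WT livers, with KO replicate 1 above them, and a log2 change of 0.10 ± 0.16 (SE; interval -0.28 to 0.47; adjusted p = 0.831). Deposited signals of Abcb8 at this probe were 113, 144 and 83.8 in KO replicates 1, 2 and 3, against 149, 131 and 131 in WT replicates 1, 2 and 3. Its other kept probes stood at 0.10 and -0.18 in the 5 arrays. At the latter both KO livers lay below all WT livers (adjusted p = 0.643), and the groups overlapped with all 6 arrays. Abcb10, which takes part in heme synthesis, had deposited signals of 102, 86.6 and 84.9 in KO replicates 1, 2 and 3, against 102, 101 and 97.2 in WT replicates 1, 2 and 3, and was detected on 1 of the 2 compared KO arrays. The KO livers stood at 5.09 and 4.21, on either side of the WT livers at 4.67, 4.80 and 4.64, with a log2 change of -0.05 ± 0.25 (adjusted p = 0.946). With all 6 arrays the log2 changes were -0.39 ± 0.43 for Abcb8 and -0.09 ± 0.26 for Abcb10. All 9 partner genes of heme and iron-sulfur synthesis were kept and 0 passed, with a median log2 change of -0.10. Of the 9, 7 lay below 0, beside 52.2% of all genes with a kept probe.

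**Figure D3:**
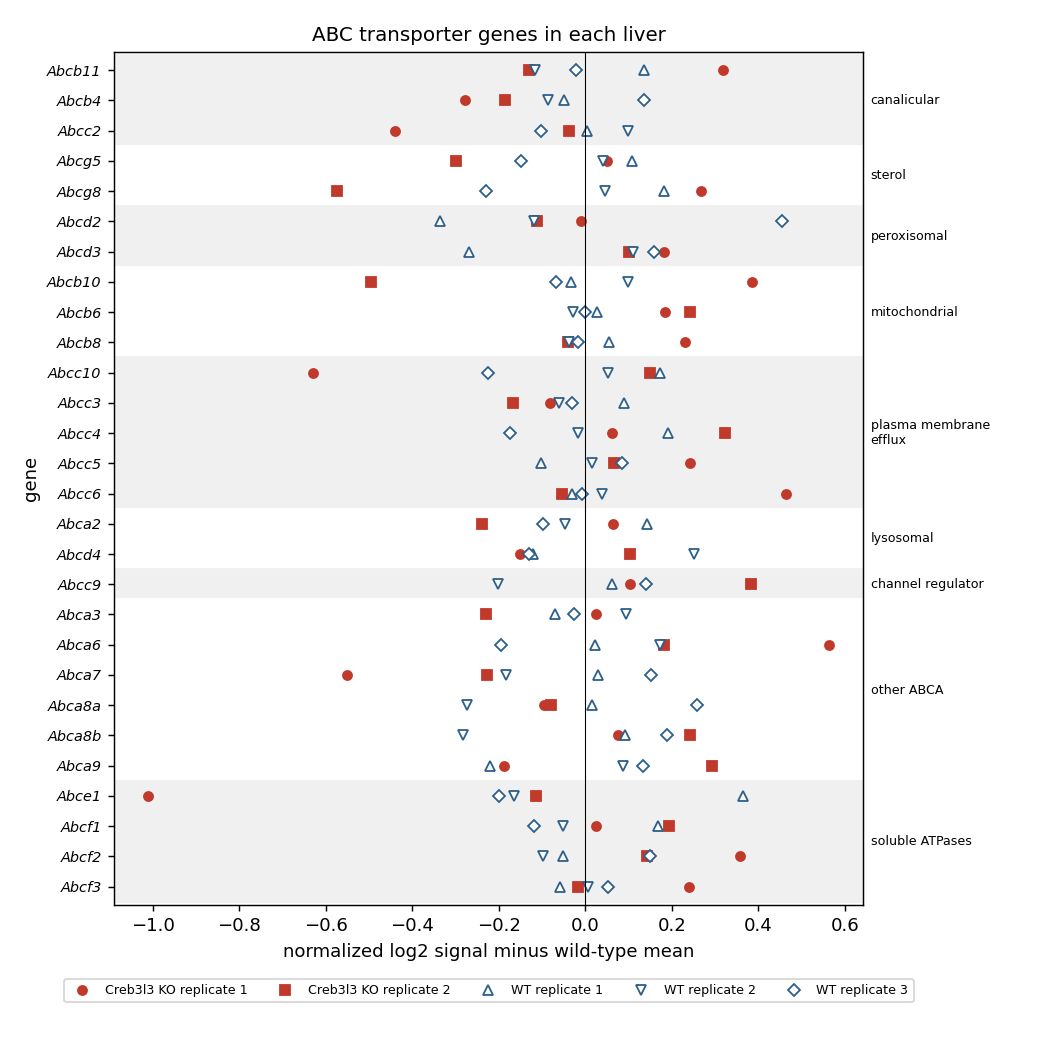
Normalized log2 signal of 28 kept ABC transporter genes in 2 Creb3l3 KO livers (filled red) and 3 WT livers (open blue), minus the mean of the WT livers, grouped by role. The 2 KO livers lie below the WT range for Abcb4, Abcc3 and Abca7 and above it for Abcb6 and Abca6. Of all 10055 genes with a kept probe, 1541 lie below it in this way and 1410 above. The 2 KO livers lie on opposite sides of the WT mean for 12 of the 28 genes drawn.

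The other 18 kept genes showed differences of the same order. Of those at the plasma membrane, 5 of 6 were kept, 0 passed and the median log2 change was 0.15, and -0.06 with all 6 arrays. Abcc3, which releases glucuronides and bile salts across the basolateral membrane, had deposited signals of 550.2, 1611 and 102 in KO replicates 1, 2 and 3, against 2029, 1464 and 1461 in WT replicates 1, 2 and 3. Its normalized values of 10.35 and 10.27 in KO livers lay just below 10.52, 10.37 and 10.40 in WT livers (log2 change -0.12 ± 0.16, SE; interval -0.48 to 0.23; adjusted p = 0.768). The value for Abcc3 was -0.16 ± 0.19 with all 6 arrays. The others ranged from -0.24 for Abcc10 to 0.21 for Abcc6, a transporter whose loss in humans causes pseudoxanthoma elasticum, and included the nucleotide and conjugate exporters Abcc4 at 0.19 and Abcc5 at 0.15. Abcc10 stood at -0.33, Abcc6 at 0.25, Abcc4 at -0.06 and Abcc5 at -0.03 with all 6 arrays, so the last 2 turned sign.

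Within the A subfamily, 7 of 16 genes were kept. Abca6 had the highest log2 change of all members. Deposited signals of Abca6 were 179, 336 and 77.8 in KO replicates 1, 2 and 3, against 313, 278 and 233 in WT replicates 1, 2 and 3. Normalized values were 8.06 and 7.68 in KO livers and 7.52, 7.67 and 7.30 in WT livers, and the log2 change was 0.37 ± 0.19 (SE; interval -0.07 to 0.82; adjusted p = 0.478), against -0.79 ± 0.96 with all 6 arrays. Its second probe stood at 0.42 and its remaining, dimmest probe at -0.36. On chromosome 11 Abca6 lies in a row with Abca8b, Abca8a, Abca9 and Abca5. Of these neighbours Abca8b stood at 0.16, Abca8a at -0.09 and Abca9 at 0.05, against -0.45, -0.74 and -0.12 with all 6 arrays, and Abca5 was detected on 0 of 6 arrays. Other kept probes stood at 0.02 and -0.08 for Abca8b and at -0.22 for Abca9 in the 5 arrays. The probe that stands for Abca8b was deposited as Abca8, and whether it separates Abca8a from Abca8b was not analysed here.

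Abca7, a phospholipid transporter of phagocytic and other cells, had deposited signals of 97.5, 106 and 84.5 in KO replicates 1, 2 and 3, against 114, 103 and 110.3 in WT replicates 1, 2 and 3. Normalized values of 4.52 and 4.84 in KO livers lay below 5.10, 4.88 and 5.22 in WT livers, with a log2 change of -0.39 ± 0.18 (SE; interval -0.81 to 0.04; adjusted p = 0.447), and of -0.41 ± 0.21 with all 6 arrays. The margin between the groups was smaller than the SD of either group, and the probe was detected on 1 of the 2 compared KO arrays. Abca3, a lipid transporter of lamellar bodies in lung, stood at -0.10, the lysosomal Abca2 at -0.09 and the lysosomal cobalamin transporter Abcd4 at -0.02. The other kept probes of Abca3 stood at 0.16 and 0.35, opposite in sign to the brightest. Abcc9, the regulatory subunit of a potassium channel, stood at 0.24. Values with all 6 arrays were -0.48 for Abca3, -0.16 for Abca2, 0.22 for Abcd4 and 0.43 for Abcc9.

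Soluble ATPases of subfamilies E and F, which have no membrane domain and act in translation, were all kept, and 0 of 4 passed, with a median log2 change of 0.11, and -0.91 with all 6 arrays. Abce1, which splits ribosomes after termination, had the lowest log2 change of all members. Its deposited signals were 101, 148 and 77.7 in KO replicates 1, 2 and 3, against 178, 131 and 129 in WT replicates 1, 2 and 3. Normalized values were 5.0 and 5.90 in KO livers and 6.38, 5.85 and 5.81 in WT livers, so that KO replicate 1 alone lay below the WT range. The log2 change was -0.56 ± 0.29 (SE; interval -1.24 to 0.11; adjusted p = 0.478), -0.12 without KO replicate 1, -0.97 without KO replicate 2 and -0.91 ± 0.43 with all 6 arrays. With KO replicate 1 as the lone KO array the adjusted p was 0.0326, in a range of 0.018 to 0.894 over its alternatives, the lowest being that of array weights on all 6 arrays. Abcf2 stood at 0.25 ± 0.17 (adjusted p = 0.565), with normalized values of 8.24 and 8.02 in KO livers and 7.83, 7.78 and 8.03 in WT livers, and turned to -0.92 ± 0.97 with all 6 arrays. Its deposited signals were 192, 403 and 84.1 in KO replicates 1, 2 and 3, against 374, 297 and 340.5 in WT replicates 1, 2 and 3. Abcf1 and Abcf3 stood at 0.11 each in the 5 arrays, but at -0.98 ± 0.90 and 0.53 ± 0.39 with all 6. The other kept probes of Abcf1 stood at 0.21 and -0.55 in the 5 arrays. Those of Abcf2 stood at 0.07, -0.04 and -0.40, and that of Abcf3 at -0.19.

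A RefSeq start-site window was at hand for 38 of the 50 genes, 45 windows in all, and that of Abce1 is shown because it belongs to the member with the largest difference and holds the cyclic AMP response element TGACGTCA, the palindrome bound by CREB-type factors. The window lies at chr8:79711691-79711990 (GRCm38.p6) on the minus strand, and capitals mark the element, whose first base is at position -10.
Abce1: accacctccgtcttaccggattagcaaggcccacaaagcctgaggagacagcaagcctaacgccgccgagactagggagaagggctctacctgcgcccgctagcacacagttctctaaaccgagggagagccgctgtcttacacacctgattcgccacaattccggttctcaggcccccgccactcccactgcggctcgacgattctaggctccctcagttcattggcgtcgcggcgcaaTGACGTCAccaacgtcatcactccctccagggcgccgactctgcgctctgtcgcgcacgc
Searched on both strands, TGACGTCA occurred in 2 of the 45 windows, or 4.44%, beside 1.79% of all 32851 windows. The 2 windows are those of Abce1 and of Abcg2, whose probe was not detected, and are too few for a comparison. TGACGTGG, an element of the unfolded protein response, occurred in 0 of 45, beside 0.676% of all windows. TGACG, which lies inside both, occurred in 20.0% of member windows and 20.8% of all windows, so the family does not stand out. A match of letters is not evidence that a factor binds.

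Of the 20 genes without a kept probe, 14 were detected on 0 of 6 arrays: Abca1, Abca4, Abca5, Abca12, Abca13, Abca14, Abca16, Abcb1a, Abcb5, Abcc1, Abcc8, Abcc12, Abcg2 and Abcg3. The remaining 6, Abca15, Abca17, Abcb1b, Abcb9, Abcg1 and Abcg4, were detected on some array but on fewer than 3 of the 5. For these 20 genes a difference was not measurable here. Of the ABC proteins that carry other names, the peptide transporter subunits Tap1 and Tap2 were kept and stood at -0.35 and -0.01, 0 passed, and the chloride channel Cftr was detected on 0 of 6 arrays.

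**Figure D4:**
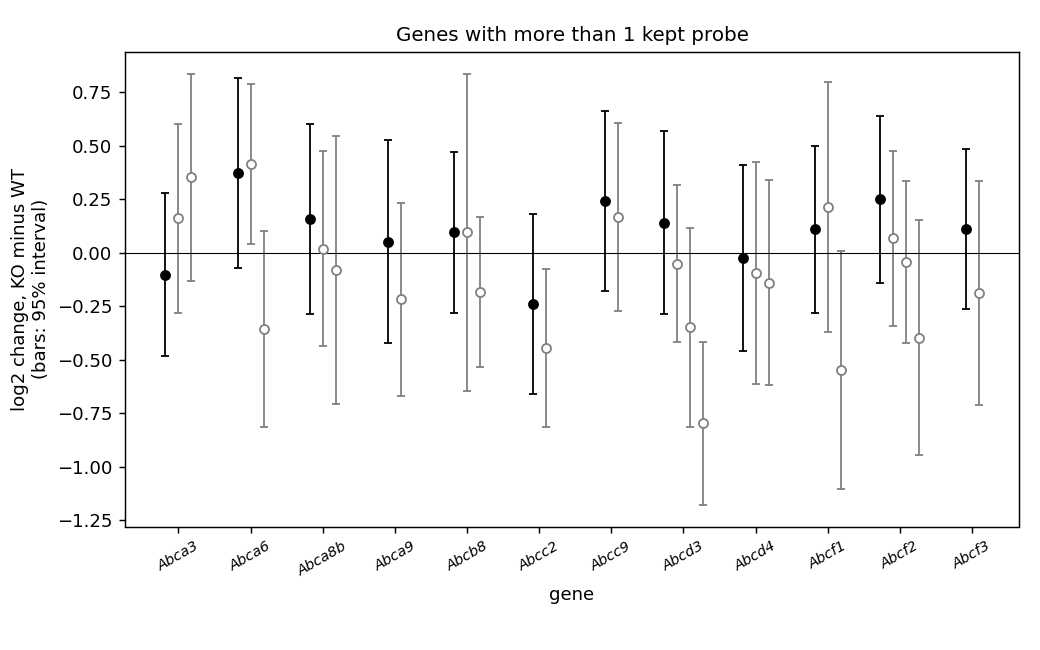
Log2 change, Creb3l3 KO minus WT, with 95% interval, of every kept probe of the 12 ABC transporter genes that have more than 1, with the brightest probe in black and the others as open circles in order of falling brightness. In 11 of the 12 genes the dimmest probe lies below the brightest, most of all in Abcd3.

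Probes of one gene often disagreed. Signs differed between kept probes in 9 of the 12 genes that have more than 1. The dimmest probe had a lower log2 change than the brightest in 11 of the 12, with a median difference of -0.27. Over all 3085 genes with several kept probes this was so in 57.1%, with a median difference of -0.05. Among all kept probes the median log2 change was -0.11 in the 4782 dimmest by mean signal, -0.01 in the 4781 of middle brightness and 0.02 in the 4782 brightest. The 20, 11 and 21 member probes of these classes had medians of -0.08, -0.04 and 0.07. The part of brightness in any single difference was not tested.

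The 2 compared KO livers also differed from each other. For 13 of the 30 genes, or 43.3%, they lay on opposite sides of the WT mean, as for 43.5% of all genes. The median distance between them was 0.27 on the log2 scale over the members, against 0.31 over all genes, and the widest was 0.89 for Abce1. For Abcb10 it was 0.88 and for Abcg8 0.84.

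Factors that act on ABC genes showed 1 call. Over all 10055 genes with a kept probe, 7 were called higher and 27 lower, and 52.2% lay below 0. Of 12 listed nuclear receptors and other regulators, 11 were kept, 0 were higher, 1 was lower and 8 lay below 0. The call was Ppara, the fatty acid receptor, at -1.24 ± 0.17 (SE; adjusted p = 0.0345), detected on 1 of the 2 compared KO arrays. Its adjusted p was 0.0505 without KO replicate 1, 0.191, 0.15 and 0.207 without WT replicates 1, 2 and 3, and 0.653 with all 6 arrays, with log2 changes of -1.27 to -1.17. The bile acid receptor Nr1h4, which acts on Abcb11, stood at -0.21 ± 0.18 (adjusted p = 0.654), and the sterol receptor Nr1h3, which acts on Abcg5, Abcg8 and Abca1, at -0.20 ± 0.19 (adjusted p = 0.694). Of 8 bile formation partners 5 were kept, 0 passed and 3 lay below 0, with a median log2 change of -0.02. They ran from -0.55 ± 0.22 for Tmem30a (adjusted p = 0.393) to 0.55 ± 0.53 for Slco1a4 (adjusted p = 0.694). For Tmem30a both compared KO livers lay below all WT livers. The bile salt importer Slc10a1 stood at -0.04 ± 0.22. Of 7 sterol efflux partners all were kept and 0 passed.

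Markers of liver cell types showed 0 calls. Of 5 hepatocyte markers 4 were kept, with a median log2 change of -0.02. Cyp2e1 stood at -0.47 ± 0.15 (adjusted p = 0.333), with both compared KO livers below all WT livers. Ttr stood at -0.04, Cps1 at -0.002 and Alb at 0.06. The Alb probe was dim, with deposited signals of 142 and 203 in the compared KO livers and 198 to 223 in WT livers. All 6 macrophage markers were kept, and 5 lay above 0, with a median of 0.28. Marco stood at 0.95 ± 0.26 (adjusted p = 0.252), Adgre1 at 0.69 and Cd68 at 0.47, while Vsig4 stood at 0.09, Clec4f at 0.04 and Lyz2 at -0.05. The Marco probe was dim, with deposited signals of 106 and 172 in KO replicates 1 and 2 and 98.4 to 119 in WT livers. With all 6 arrays Marco stood at 0.37, and the groups overlapped. Of 5 endothelial markers 4 were kept and lay above 0, with a median of 0.25. Over all 10055 genes with a kept probe, 4804 lay above 0. Summed deposited signals count undetected genes too and are not normalized for the dimness of KO replicate 1. For the macrophage list they were 995 and 2542 in KO replicates 1 and 2 and 1770.2 to 2080.5 in WT livers. For the endothelial list they were 640.3 and 1219 in these KO livers and 809 to 925 in WT livers. After normalization the median distances of KO replicates 1 and 2 from the WT mean were 0.10 and 0.48 for macrophage markers. Those for endothelial markers were 0.31 and 0.18. All 3 kept erythroid genes of 4 lay below 0, with a median of -0.64. The summed deposited signal of the 4 was 3961 and 28381 in KO replicates 1 and 2 and 22784 to 26935 in WT livers. After normalization the median distances of these KO livers from the WT mean were -1.33 and -0.002. Of 5 cholangiocyte markers Krt19, Krt7 and Epcam were detected on 0 of 6 arrays, while Sox9 and Spp1 were kept and stood at 0.36 and 0.18. Of the kept stellate genes Des stood at 0.28 and Reln at -0.48, and of the lymphocyte genes Nkg7 at 0.50 and Cd3g at -0.002. The adipocyte and muscle lists had 0 kept genes. Their part in the differences of ABC genes was not tested.

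**Figure D5:**
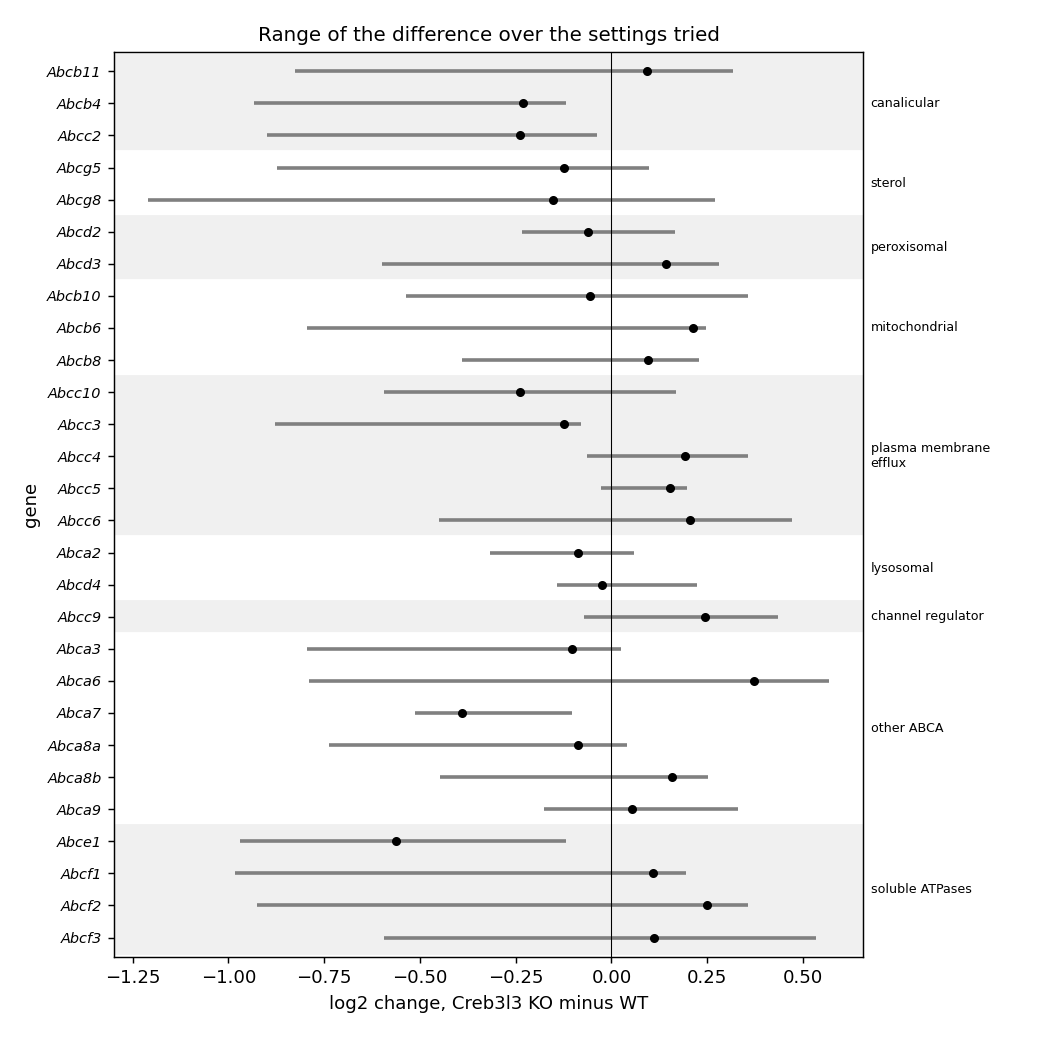
Log2 change of 28 kept ABC transporter genes, Creb3l3 KO minus WT, in the 5 arrays (points), with the lowest and highest value over the alternative settings and array sets (grey lines). The lines of Abca7, Abcb4, Abcc2, Abcc3 and Abce1 stay below 0, and those of the other 23 genes cross it.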

How the data were processed

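Trizol RNA of 6 livers, purified on a column, was made into biotinylated cRNA for Illumina WG-6 arrays, per the labels' protocols. The deposited array tables give a mean bead intensity per probe, per the file headers, not normalized by its values, and a detection p-value that the authors' software gave, BeadStudio 3 per the submitters' processing notes. The authors' value table of intensity served as an alternative. It is linear and matched quantile-normalized signals, with column medians of 91.6 to 91.7, without centring, and needs no direction. Its normalization is not given in the labels. Its columns for WT replicates 2 and 3 matched the arrays of WT replicates 3 and 2, which leaves the genotype groups unchanged.

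Signals were processed with neqc of limma 3.58.1 in R 4.3.3 (normexp background correction with controls inferred from detection p-values, offset 16, quantile normalization, log2), for 5 arrays without KO replicate 3 and again for all 6. lmFit and eBayes had genotype as their single term. The two-sided p-values were adjusted by Benjamini-Hochberg over 14345 probes for 5 arrays and 14494 for 6, and calls made at an adjusted p under 0.05. Named genes were all kept canalicular, sterol, peroxisomal and mitochondrial members and the 4 largest changes and 4 smallest p-values among the others. A few of these genes are counted in totals but not reported here by name. Members described beyond these were chosen after their values were seen. Symbols were updated through a RefSeq gene table (GRCm38.p6), which also gave gene order. Steps were tested on simulated data. The members, gene lists and the omission of KO replicate 3 were chosen with earlier results of these data known. Figures were drawn with matplotlib 3.10.9.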

Additional observations from a re-analysis of the deposited data

How the results depend on the processing

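Alternatives numbered 18: other array sets, normalizations, filters, variance models and the authors' table. Counts of member probes called stayed at 0 higher and 0 lower under 16 of them. With KO replicate 2 left out, so that the dim KO replicate 1 stood alone and was assumed to vary like the WT arrays, 3 were higher and 4 lower of 48 tested, or 6.25% and 8.33%, beside 5.89% and 10.8% of all probes. Over the fits that leave out a mouse the counts thus ran from 0 to 3 higher and from 0 to 4 lower. Array weights on all 6 arrays, which put 87.2% of the KO weight on KO replicate 1, gave 1 higher and 5 lower of 52, or 1.92% and 9.62%, beside 7.11% and 12.4% of all probes. The called genes in the first case were Abca3, Abcb8, Abcd3, Abce1, Abcf1 and Abcf2. In the second they were Abca3, Abca7, Abcd3, Abce1, Abcf1 and Abcf2. At the brightest probe only Abce1 was called in the first case, and only Abce1 and Abca7 in the second. The other genes named were called by dimmer probes alone. The cause was not tested. Over all kept probes, where 9 were called higher and 40 lower, the counts were 787 and 1447 without KO replicate 2, 1030 and 1802 with array weights, 0 and 4 under median scaling, 0 and 1 with no filter, and 1 to 30 and 7 to 92 otherwise, except 0 and 0 with all 6 arrays.

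Signs were less stable than calls: 6 of 30 genes kept theirs under every alternative that tested them, and 0 called values changed sign. Median scaling moved the median of all probes to -0.42 and all 6 arrays to -0.28, and the member genes' median to -0.44 and -0.28. With the replicate block, member counts were 0 and 0 and the smallest adjusted p of a member was 0.633. With all 6 arrays, KO replicate 3 among them, same-numbered livers did not deviate together (r = -0.05, -0.05 and 0.04). In the 5 arrays r was -0.13 for replicate 1 and -0.13 for replicate 2. There the 2 KO arrays deviate from their mean as mirror images, so the check cannot decide on pairing. The numbers were not taken as pairs. Signal over background limits what can be seen: 52 of the 104 member probes were not tested, and the offset understates differences of dim ones.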
